A study of Mus musculus with 3 samples.

Results

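The transcripts of 34 genes of glycolysis and of the cellular response to low oxygen were examined in mouse CD8 T cells cultured with and without added cholesterol. The genes were taken as a list of symbols, 13 enzymes that catalyse steps of glycolysis and 21 genes that sense oxygen or are induced when it is scarce. Of the 19505 genes with a named probe set on the array, 32 belonged to the list. Gpi1 and Eno1, which encode glucose-6-phosphate isomerase and an enolase, had no named probe set and were not measured. Ero1l is carried in the annotation under its current symbol Ero1a. Each of the 32 measured genes had 1 probe set, and 31 of them passed a filter on low values, a mean log2 intensity at or above the median of all transcript probe sets (an intensity of 43.3). The exception was Car9.

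In all 3 conditions the CD8 cells were stimulated through CD3 and CD28 and kept with Tc1 cytokines, which favour cytotoxic cells that make interferon-gamma. The control received these cytokines alone, and each of the other two samples received them with cholesterol, at 0.5 µg/ml (the lower dose) or 0.75 µg/ml (the higher dose). The study set each cholesterol dose against the control. The labels give neither the mouse strain, age and number of animals nor the length of the culture and the carrier of the cholesterol, so cholesterol and any carrier added with it cannot be told apart. Each condition is 1 array. No difference below therefore has a replicate check or a test, and precision is limited by having so few arrays.

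Glycolysis converts glucose to pyruvate, and lactate dehydrogenase then turns pyruvate into lactate. T cells that become effectors raise glucose uptake and run this route even when oxygen is present. Many of its genes are targets of the hypoxia-inducible factor HIF, whose alpha subunit is hydroxylated by oxygen-dependent prolyl hydroxylases, bound by the VHL ubiquitin ligase and destroyed. In stimulated T cells, signals through mTORC1 also raise HIF, and MYC drives many of the same glycolytic genes.

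The 3 arrays had similar overall levels, with median transcript intensities between 43.3 and 44.5. The 95th percentile of the negative controls lay between 98.3 and 102, and the highest of these, 102, is called the background level below. Cd8a, which marks CD8 T cells, and Cd3e, which marks T cells in general, had intensities of 3313 or more on every array. Of the 9 measured genes listed as markers of CD8 T cells, 7 were below the control at 0.75 µg/ml, against 46.1% of all measured genes, and 2 above. The median log2 difference of the 9 was -0.18. Cd8a, Cd8b1, Cd3d, Ifng, Cd3g and Tbx21 differed by -0.35, -0.34, -0.34, -0.18, -0.09 and -0.08, and Cd3e and Gzmb by 0.07 and 0.10. Prf1 was at 129 in the control and under the background level at 0.75 µg/ml, at least 1.27-fold lower. Of 15 measured markers of B cells, CD4 T cells, myeloid cells, NK cells, erythroid cells and platelets, 14 were under the background level on every array and none was listed at 0. The exception was Cd79b, at 111 in the control, 100 at the lower dose and 105 at the higher dose. The summed intensity of the 15 was 447 in the control, 399 at the lower dose and 395 at the higher dose. With 14 of the 15 under the background level, this sum does not measure how many such cells were present. The part of these shifts in the results was not tested, and fewer cells of a kind and less RNA per cell cannot be told apart in such samples. Positive-control probe sets past the level filter differed between arrays with an SD of 0.27 to 0.30 on the log2 scale.

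Both groups of genes were slightly above the control at the lower dose and below it at the higher dose, the hypoxia-inducible genes by more than the enzymes. At 0.5 µg/ml, 10 of the 11 measured enzymes were above the control (Hk1 by 0.00 and Pgam1 by 0.01), against 50.6% of all measured genes. The median log2 difference of the enzymes was 0.09, with members from -0.05 to 0.24. With quantile normalization, Hk1 and Pgam1 were just below the control, at -0.02 and -0.04. Of the 21 hypoxia-inducible genes, 18 were above the control, with a median of 0.15 and members from -0.16 (Car9) to 0.56. Car9, and P4ha2 among the 18, were under the background level on every array. With values under that level raised to it, the median was 0.13 and the lowest member was Egln2, at -0.06. The median of all measured genes was 0.00. No member differed 1.5-fold or more at this dose, where 0.6% of the genes past the level filter were that much higher and 0.74% that much lower.

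At 0.75 µg/ml, 9 of 11 enzymes were below the control, against 46.1% of all measured genes, with a median log2 difference of -0.18 and members from -0.37 to 0.05. No enzyme was 1.5-fold lower. Of the hypoxia-inducible genes, 20 of 21 were below the control, and 3 of the 21 were under the background level on every array. The median of the 21 was -0.53, or -0.51 with values under that level raised to it, while the median of all measured genes was 0.01. Ndrg1, at -1.85, was the lowest among those above the background level on both arrays. Among the 20 that passed the level filter, 4 were at least 2-fold lower, where 1.59% of all genes past that filter were. At the lower bar of 1.5-fold the count was 9, against 4.53% of all genes. Ndrg1, Egln3, Ak4 and Vegfa were the 4 genes past the 2-fold bar, Vegfa by a value at 0.75 µg/ml that was under the background level. With intensities under that level raised to it, Vegfa dropped out and 3 were left, against 0.502% of all measured genes, while the count at 1.5-fold was again 9, against 1.49%. Ak4 lay just inside the 2-fold bar at -1.05 and Bnip3l, at -0.85, was the nearest outside.

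Between the doses, 10 of 11 enzymes and 19 of 21 hypoxia-inducible genes had lower intensities at the higher dose, against 47.6% of all measured genes. The enzymes had a median log2 difference of -0.27 and the hypoxia-inducible genes one of -0.76, next to 0.00 for all measured genes. At least 2-fold lower were 5 hypoxia-inducible genes (1.2% of all genes past the level filter), and 14 were at least 1.5-fold lower (3.68% of all). With values under the background level raised to it, Vegfa left the first count and P4ha2 the second, and the counts were 4, against 0.385% of all measured genes, and 13, against 1.17%. Hilpda was the gene added here, at -1.08, and Bnip3 was just outside at -0.99. These comparisons share arrays, so they are not independent of each other. Over the genes above the background level on at least 1 array, which were all 11 enzymes, 18 hypoxia-inducible genes and 8012 genes in all, the 0.5 µg/ml array was the highest of the 3 for 10 enzymes and 17 hypoxia-inducible genes, against 30.1% of those 8012. The 0.75 µg/ml array was the lowest for 8 and 17 of them, against 38.7%. Among the 10 enzymes highest at 0.5 µg/ml, Hk1 and Pgam1 exceeded the control by only 0.00 and 0.01.

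**Figure D1:**
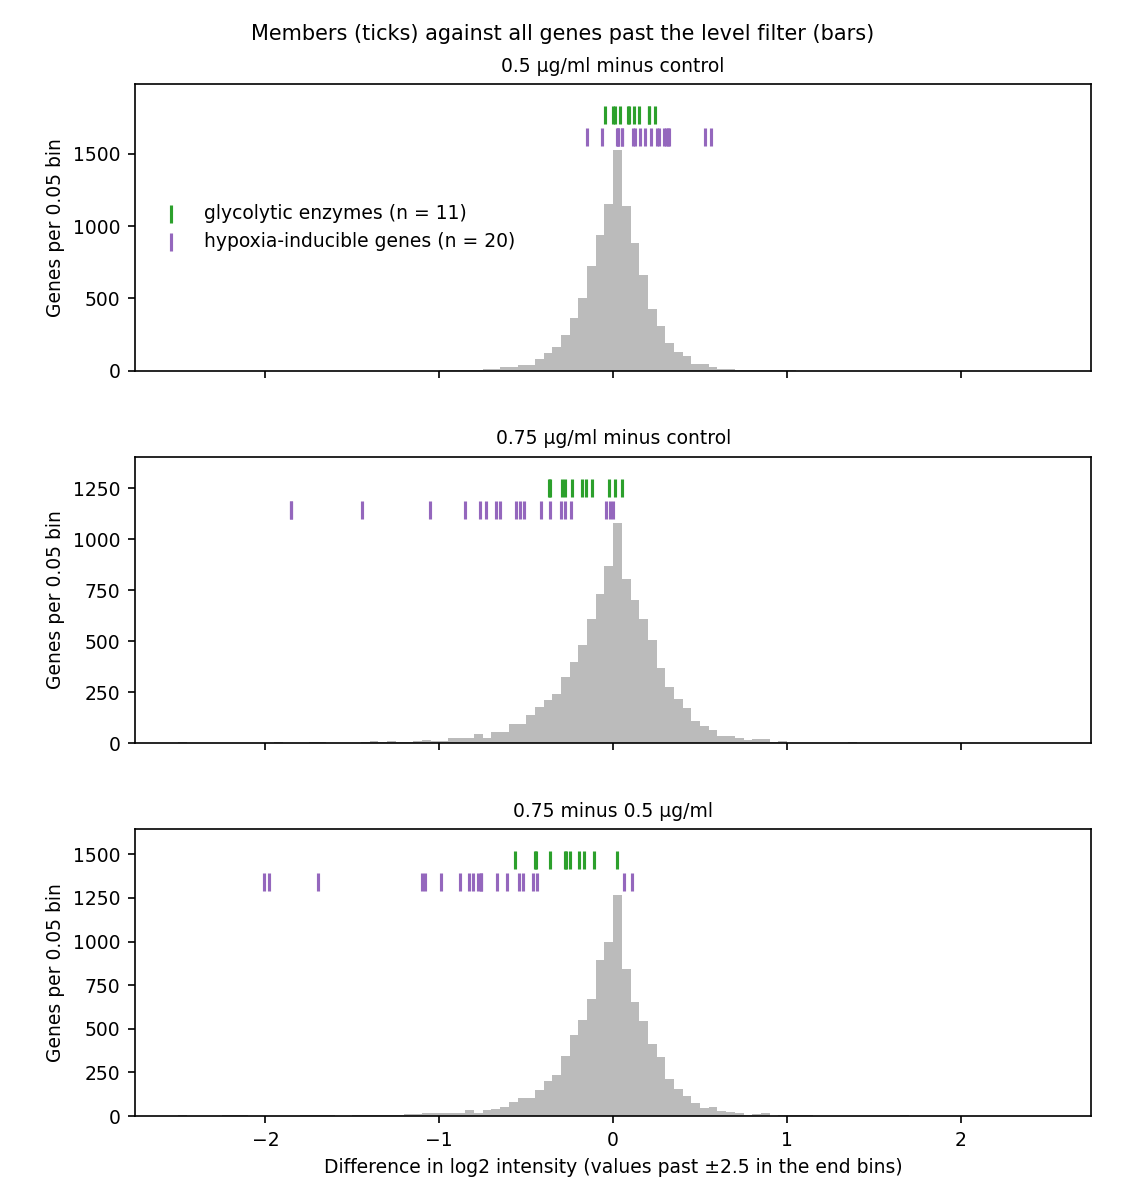
Each panel is one comparison of 2 arrays. The horizontal axis is the difference in log2 intensity, grey bars count the 10003 genes past the level filter in bins of 0.05, and ticks mark the 11 enzymes (green) and the 20 hypoxia-inducible genes past that filter (purple). At 0.75 µg/ml the purple ticks reach from 0.00 down to Ndrg1 at -1.85, with Vegfa beside it at a value that rests on an intensity under the background level, while the green ticks stay between -0.37 and 0.05.

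The DNA before the start of these genes can be read for ACGTG, a form of the core that HIF and several other factors recognise. Other forms of the core, such as GCGTG, were not searched. RefSeq windows on the assembly GRCm38.p6 were used, the 250 bases before the most upstream annotated start of each gene, and 32 of the 34 genes had one. Bnip3l and Ndrg1 had no entry. The letters ACGTG, searched on both strands (CACGT on the other strand, with an overlapping pair, CACGTG, counted as 1 match), were present in 16.5% of the windows of all 27025 genes in the table and in 22.6% of those of genes past the level filter. They were present in 5 of the 13 enzyme windows (38.5%) and in 12 of 19 windows of the hypoxia-inducible genes (63.2%). These windows held on average 14.3 and 19.7 CG pairs, against 16.8 for genes past the level filter and 9.82 for all genes, and the part of base composition was not tested. The 4 windows below belong to the enzymes and the hypoxia-inducible genes with the lowest differences in deposited values at 0.75 µg/ml among those with an entry. Vegfa is one of them by an intensity under the background level, and with that intensity raised to the level, at -0.72, it would come after Egln3, Ak4, Hilpda and Pdk1. They are printed 5′ to 3′ on the gene's strand, with matches to ACGTG or CACGT in capitals.
Hk2 (chr6:82774455-82774704, minus strand): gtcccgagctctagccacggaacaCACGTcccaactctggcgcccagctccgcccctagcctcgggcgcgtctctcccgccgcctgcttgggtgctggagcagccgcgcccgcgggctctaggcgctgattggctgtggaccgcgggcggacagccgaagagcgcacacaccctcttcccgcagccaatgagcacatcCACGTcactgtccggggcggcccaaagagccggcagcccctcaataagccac
Pfkl (chr10:78009808-78010057, minus strand): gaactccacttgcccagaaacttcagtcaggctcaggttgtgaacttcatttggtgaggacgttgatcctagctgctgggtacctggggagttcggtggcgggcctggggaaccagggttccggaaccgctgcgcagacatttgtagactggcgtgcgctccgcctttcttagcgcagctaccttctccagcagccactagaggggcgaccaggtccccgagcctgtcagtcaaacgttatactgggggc
Vegfa (chr17:46032378-46032627, minus strand): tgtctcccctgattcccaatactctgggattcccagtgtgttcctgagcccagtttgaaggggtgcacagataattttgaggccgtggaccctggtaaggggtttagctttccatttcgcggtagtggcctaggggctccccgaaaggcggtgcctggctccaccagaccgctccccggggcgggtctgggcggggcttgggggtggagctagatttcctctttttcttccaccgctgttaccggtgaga
Egln3 (chr12:54203875-54204124, minus strand): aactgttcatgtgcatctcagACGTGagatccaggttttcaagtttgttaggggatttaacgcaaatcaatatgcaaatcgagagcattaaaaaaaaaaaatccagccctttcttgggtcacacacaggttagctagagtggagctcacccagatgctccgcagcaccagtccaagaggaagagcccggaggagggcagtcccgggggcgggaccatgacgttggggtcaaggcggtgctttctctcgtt

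Hk2 had 2 matches in its window, the first base of the nearer one 52 bases and of the farther one 226 bases before the start. Egln3 had 1, at 229 bases, while the windows of Pfkl and Vegfa held none, which says only that these letters are not in those 250 bases. Among the hypoxia-inducible genes at 0.75 µg/ml, the 12 with a match had a median log2 difference of -0.44 and the 7 without one a median of -0.73. With values under the background level raised to it, the medians were -0.33 (the lowest gene at -1.44) and -0.72 (the lowest at -1.05). For the enzymes the medians were -0.24 for 5 genes with a match and -0.17 for 6 without.

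Along the pathway, glucose is first trapped by hexokinase. Hk1, the broadly expressed hexokinase, was at an intensity of 1457 in both the control and the 0.5 µg/ml array and at 1205 at 0.75 µg/ml, a log2 difference of -0.27. Hk2, the form that is induced in activated and hypoxic cells, was at 548 in the control, 581 at the lower dose and 425 at the higher dose, a difference of -0.37 that was the lowest of the enzymes. Both hexokinases were therefore lowest on the 0.75 µg/ml array.

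Phosphofructokinase, which commits the sugar to glycolysis, has liver (Pfkl), platelet (Pfkp) and muscle (Pfkm) subunits. Pfkl was at 814 in the control, 939 at the lower dose and 634 at the higher dose. Pfkp was at 3072, 3546 and 2754 in the same order. Pfkm was at 134, 159 and 139. All 3 subunit genes were highest at 0.5 µg/ml, with log2 differences from the control of 0.21, 0.21 and 0.24, and at 0.75 µg/ml they parted, at -0.36, -0.16 and 0.05. Between the doses Pfkl differed by -0.57, the lowest value of any enzyme in that comparison. A probe set's brightness depends on its sequence, so these intensities do not say which subunit is the most abundant.

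The triose and phosphoglycerate steps had small differences. Triose-phosphate isomerase, Tpi1, was at 2696 in the control, 2869 at the lower dose and 2379.95 at the higher dose. Gapdh, which makes the first NADH of the route and often serves as a reference gene, was at 7031, 6808 and 6922, within 0.05 of the control on the log2 scale at both doses. Tpi1 had the wider spread of the pair, with log2 differences of 0.09 and -0.18 from the control.

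Pgk1, phosphoglycerate kinase and a classical HIF target, was at 3248 in the control, 3598 at the lower dose and 2648 at the higher dose, a log2 difference of 0.15 and then of -0.30. The mutase Pgam1 was at 2456, 2475 and 2081, with -0.24 at 0.75 µg/ml. Of these 4 genes Pgk1 had the widest spread over the 3 arrays.

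The final steps yield pyruvate and lactate. Pyruvate kinase, Pkm, was at 5579 in the control, 5743 at the lower dose and 5119.85 at the higher dose, a difference of -0.12. Ldha, the lactate dehydrogenase subunit that HIF induces, was at 3626, 3941 and 3651, so the 0.75 µg/ml array was level with the control, at a log2 difference of 0.01. Gapdh, Ldha and Pfkm were the enzymes within 0.05 of the control at 0.75 µg/ml.

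**Figure D2:**
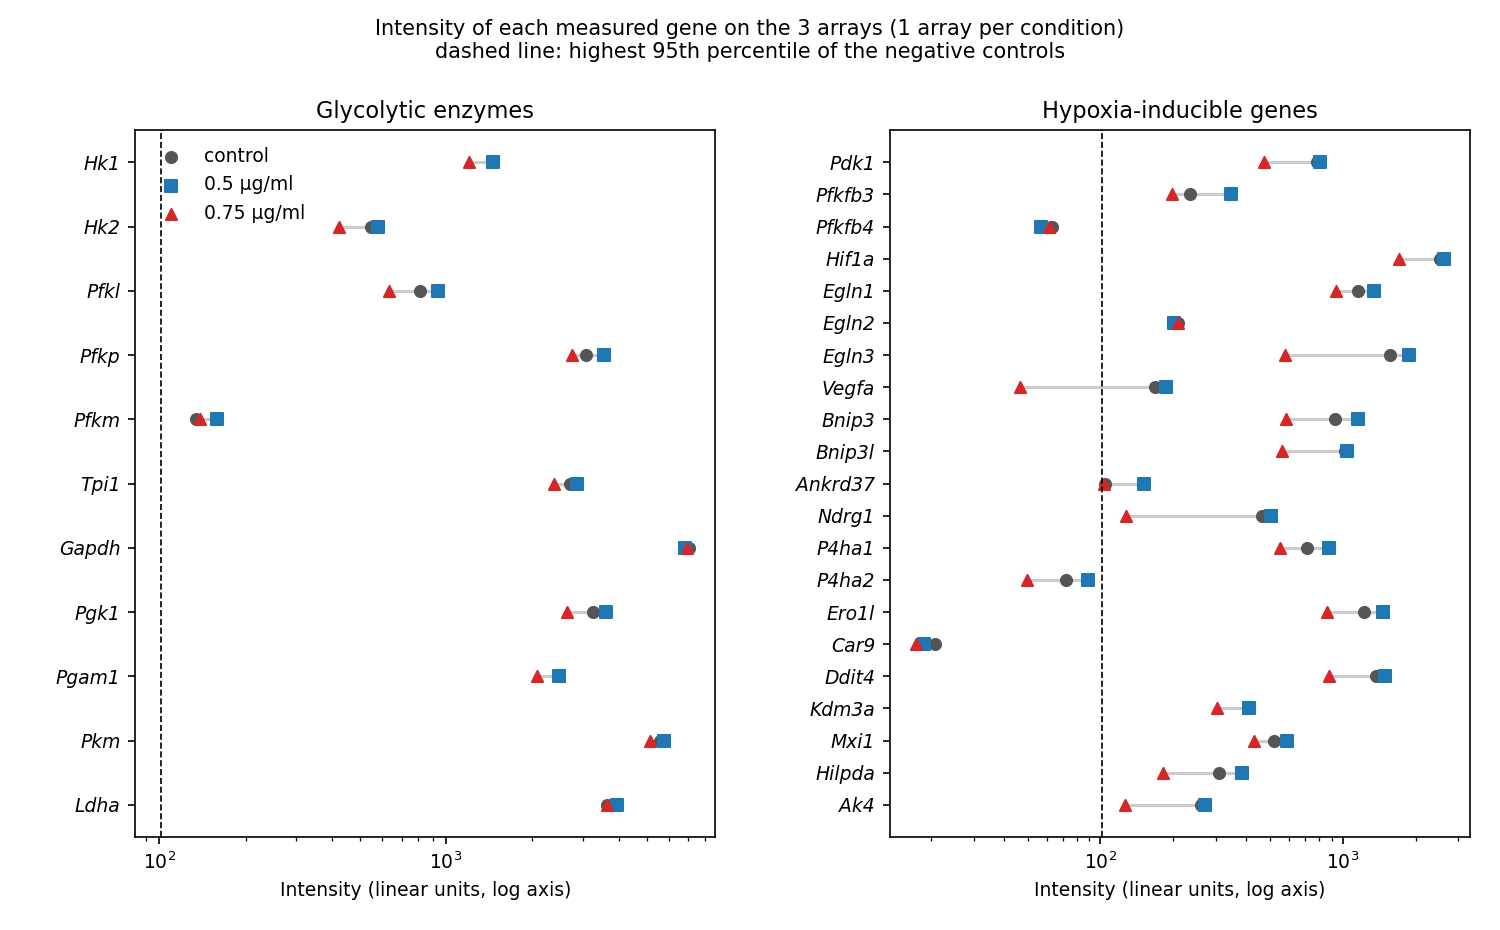
Intensity on a log axis of the 11 measured enzymes (left) and the 21 hypoxia-inducible genes (right) on the control array (grey circles), at 0.5 µg/ml (blue squares) and at 0.75 µg/ml (red triangles), with 1 array per condition and the background level of 102 as a dashed line. The red triangle is the lowest point for 8 enzymes and 19 hypoxia-inducible genes, and Vegfa crosses the dashed line, from 168 to 46.4.

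Several hypoxia-inducible genes steer the flow through glycolysis without being a step of it. Pdk1, a kinase that shuts pyruvate dehydrogenase and so keeps pyruvate out of the mitochondrial cycle, was at 786 in the control, 802 at the lower dose and 473 at the higher dose, or 1.66-fold lower than the control. Pfkfb3 makes fructose 2,6-bisphosphate, the activator of phosphofructokinase, and was at 234, 347 and 198. Its 1.48-fold higher value at 0.5 µg/ml was the highest difference of any member at that dose, 16th from the top among the 7510 genes above the background level on both arrays. Pfkfb4, a related enzyme, was at 63.3, 57.1 and 61.5, under the background level on every array, and no fold is given for it.

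The oxygen-sensing genes differed in size. Hif1a, the HIF alpha subunit itself, was at 2512 in the control, 2607 at the lower dose and 1705 at the higher dose, a log2 difference of -0.56. Egln1 encodes the main prolyl hydroxylase that marks HIF for destruction, and was at 1157, 1344 and 938, a difference of -0.30. Egln3, a prolyl hydroxylase that HIF itself induces, was at 1569.5, 1872 and 577, or 2.72-fold lower than the control at 0.75 µg/ml. Egln2, a prolyl hydroxylase that low oxygen does not typically induce, was at 209, 201 and 209, with a difference of 0.00. The order of the 3 hydroxylase genes at 0.75 µg/ml was thus Egln3, Egln1 and Egln2 from the lowest difference up, in single arrays.

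Ndrg1 had the lowest difference at 0.75 µg/ml among the members above the background level on both arrays, and Vegfa fell under that level there. Vegfa, which encodes a secreted growth factor for blood vessels, was at 168 in the control, 187 at the lower dose and 46.4 at the higher dose. Since the last value is under the background level, only a bound can be given, and Vegfa was at least 1.65-fold lower than the control. Against the lower dose the bound was at least 1.84-fold lower. Ndrg1, a stress-responsive gene of differentiating cells that is widely used as a hypoxia marker, was at 462, 504 and 128, or 3.61-fold lower than the control, with every array above the background level. Among the 7371 genes above the background level on both arrays, Ndrg1 stood 12th from the bottom against the control, Egln3 26th and Ak4 68th. Between the doses Ndrg1 stood 6th of 7409. Vegfa has no rank, since its value at 0.75 µg/ml is a bound.

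Ak4, a mitochondrial adenylate kinase, was at 260.4 in the control, 269.5 at the lower dose and 126 at the higher dose, or 2.07-fold lower than the control. Hilpda, a lipid droplet protein that blocks triglyceride breakdown, was at 309, 385 and 182, with a log2 difference of 0.31 and then of -0.77. Ddit4, which restrains mTORC1 under stress, was at 1376, 1489 and 877, with -0.65 at 0.75 µg/ml. All 3 were highest at 0.5 µg/ml and lowest at 0.75 µg/ml, and Hilpda differed by 2.11-fold between the doses.

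The mitophagy receptors Bnip3 and Bnip3l, which mark mitochondria for removal, were both lower at 0.75 µg/ml. Bnip3 was at 926 in the control, 1155 at the lower dose and 581 at the higher dose, a log2 difference of 0.32 and then of -0.67. Bnip3l was at 1017, 1036 and 563, a difference of 0.03 and then of -0.85. Bnip3l thus stood level with the control at 0.5 µg/ml, where Bnip3 was 1.25-fold higher.

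Genes that serve protein folding and collagen modification followed the same order over the arrays. Ero1l, the oxidase that forms disulfide bonds in the endoplasmic reticulum, was at 1223 in the control, 1471 at the lower dose and 858 at the higher dose, a log2 difference of -0.51 at the higher dose. P4ha1, a catalytic subunit of collagen prolyl hydroxylase, was at 711, 878 and 552, a difference of -0.37. P4ha2, its paralogue, was at 72.4, 88.8 and 50.0, under the background level on all 3 arrays. Both measurable genes were highest at 0.5 µg/ml.

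Of the remaining 4 genes of the list, none was 1.5-fold higher or lower at either dose. Kdm3a, a histone demethylase, was at 405 in the control, 411 at the lower dose and 304 at the higher dose, a log2 difference of -0.42. Mxi1, which counters MYC, was at 520.4, 590.4 and 429, a difference of -0.28. Ankrd37, an ankyrin repeat gene, was at 105, 151 and 104, near the background level, and its 1.44-fold higher value at 0.5 µg/ml was 23rd from the top of the 7510 genes above that level on both arrays, next after Pfkfb3 among the members. Car9, a carbonic anhydrase that is a common hypoxia marker in tumours, was at 20.8, 18.7 and 17.3, under the background level on each array.

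**Figure D3:**
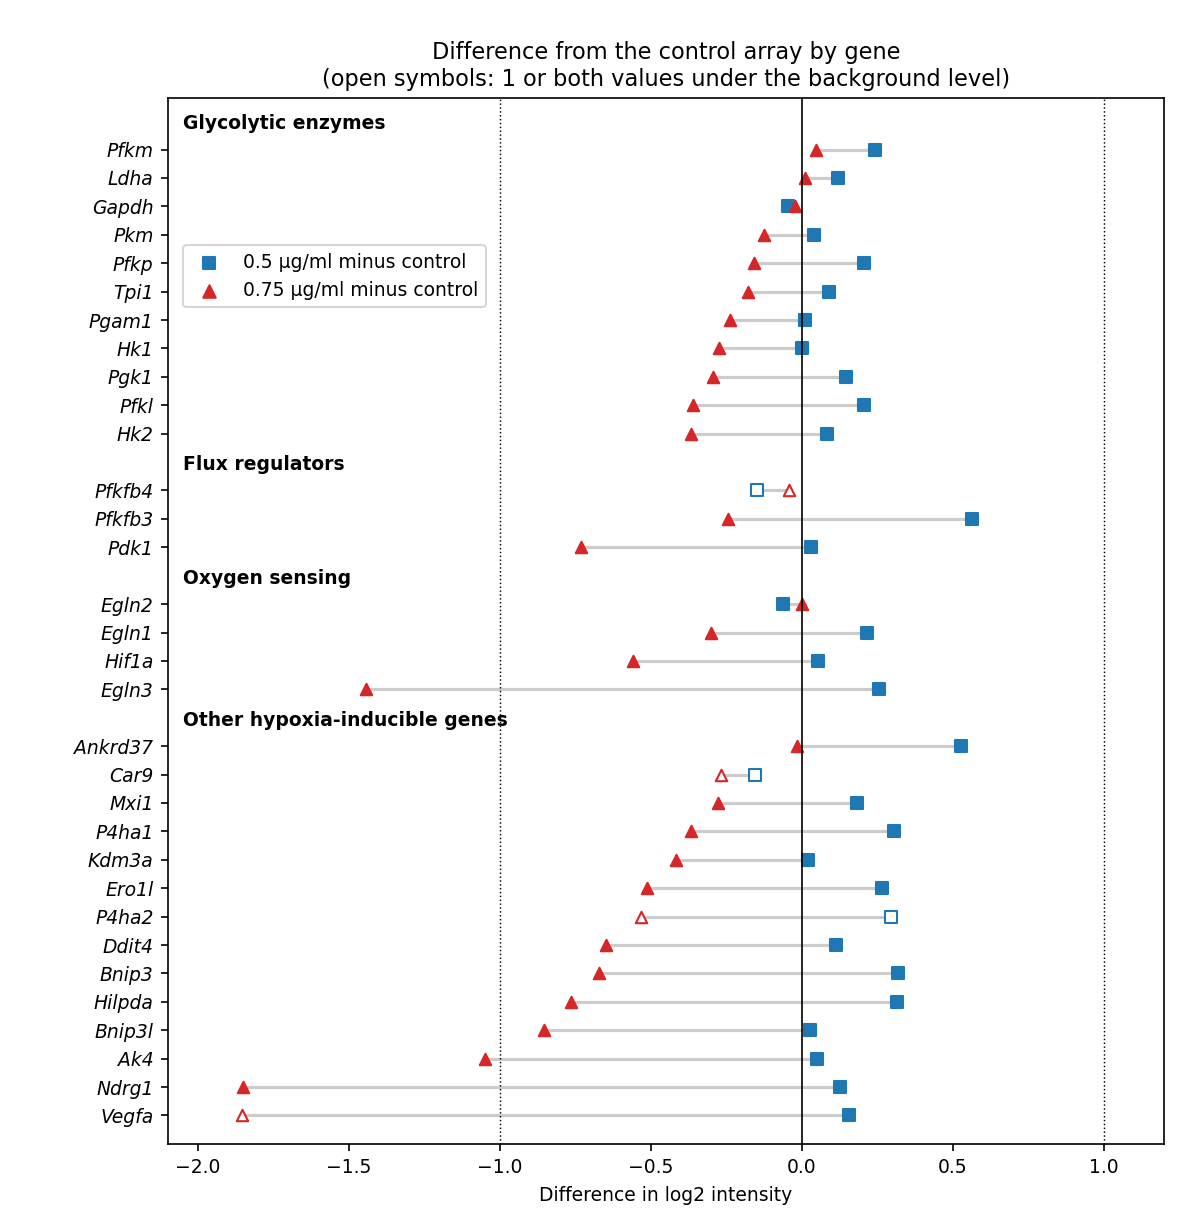
Difference in log2 intensity from the control array at 0.5 µg/ml (blue squares) and 0.75 µg/ml (red triangles) for the 32 measured genes, grouped by role, with dotted lines at a 2-fold difference and open symbols where 1 or both values were under the background level (Pfkfb4, P4ha2, Car9 and, at 0.75 µg/ml, Vegfa). The red triangles of Ndrg1, Egln3 and Ak4, and the open one of Vegfa, lie left of the dotted line, and no blue square reaches either line.

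Genes that work next to these ones were taken from further lists. Aldolases and the glucose and lactate transporters belong to the same route. All 6 measured were below the control at 0.75 µg/ml, against 46.1% of all measured genes, with a median log2 difference of -0.83. The lowest was Aldoc, at 688 in the control, 555 at the lower dose and 51.2 at the higher dose. Since the last value is under the background level, Aldoc was at least 6.76-fold lower than the control. The glucose transporter Slc2a3 (-1.69) and the lactate exporter Slc16a3 (-1.19) were at least 2-fold lower too, where 1.59% of all genes past the level filter were.

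Other isozymes of the same steps and related regulators were mostly dim. Of 16 measured, 8 passed the level filter, and these had a median of 0.03 at 0.75 µg/ml. Tigar, a phosphatase that opposes Pfkfb3 by removing fructose 2,6-bisphosphate, was at 107 in the control, 117 at the lower dose and 139.9 at the higher dose. Eno3, a muscle enolase, was at 258, 227 and 238. Pdk2 and Pklr were under the background level on every array. None of the 8 was 1.5-fold higher or lower.

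The partners and regulators of HIF had a median of 0.00 at 0.75 µg/ml over 15 measured genes. Of these, 7 were below and 7 above the control, against 46.1% and 50.8% of all measured genes. On every array 4 of the 15 were under the background level. The largest difference of the list, at 1.46, was that of a gene that did not pass the level filter. None of the 13 past the level filter differed 1.5-fold. Siah2, a ubiquitin ligase that removes prolyl hydroxylases, was at 219 in the control, 189 at the lower dose and 148 at the higher dose. Vhl, the recognition subunit for hydroxylated HIF, was at 144, 152 and 113, and Cited2, which competes with HIF for its coactivators, was at 1885, 2292 and 2404. Rbx1, a subunit of the VHL ligase, was at 450.5, 462 and 558. Values on the 0.75 µg/ml array thus lay on both sides of the control.

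A list of further hypoxia-inducible genes held 34 measured genes, of which 11 were under the background level on every array. At 0.75 µg/ml, 21 of the 34 were below and 12 above the control, against 46.1% and 50.8% of all measured genes. The median of the 34 was -0.23. Over the 26 past the level filter, the median was -0.42. Of these, 10 were at least 1.5-fold lower, against 4.53% of all genes past that filter, and none at least 1.5-fold higher. With values under the background level raised to it, the count was 7, against 1.49% of all measured genes. The median of the 34 was then 0.00. Zfp395 was at 242 in the control, 252 at the lower dose and 123 at the higher dose. The chemokine receptor gene Cxcr4 was at 396, 458 and 203, and Ier3, an immediate-early survival gene, was at 244, 321 and 130.3. Rora, a nuclear receptor gene with the lowest difference of the list, was under the background level on all arrays. This list was chosen for induction by low oxygen and, like that of the members, with earlier results of these data known.

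**Figure D4:**
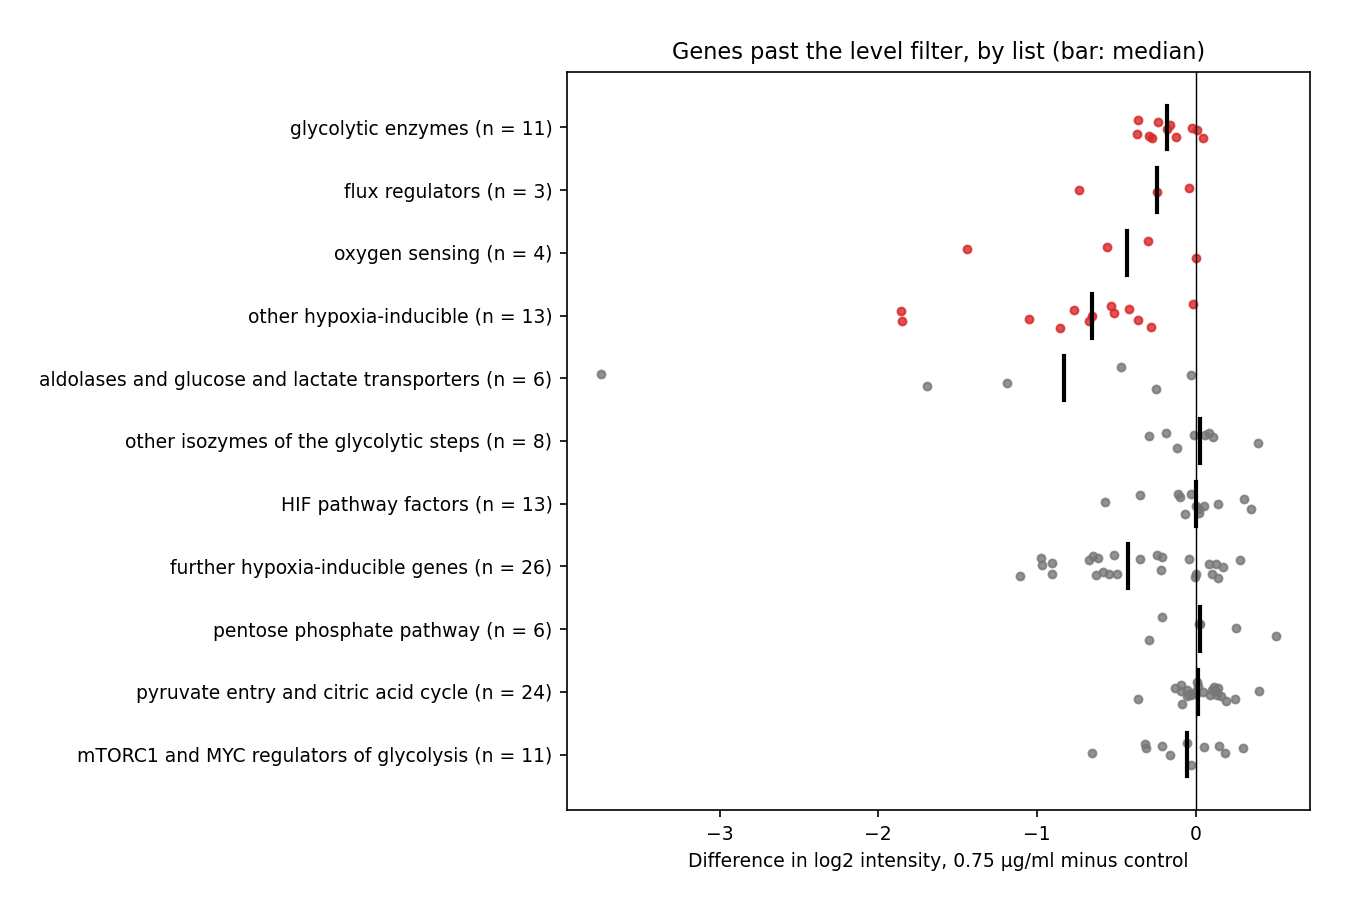
Difference in log2 intensity between 0.75 µg/ml and the control for each gene past the level filter, by list, with red points for the 4 lists of members, grey points for other lists and a black bar at each list's median. The median is -0.65 for the 13 other hypoxia-inducible members past the filter, -0.42 for the 26 further hypoxia-inducible genes and 0.00 for the HIF pathway factors.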

How the data were processed

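Per the labels, RNA came from a Trizol extraction and carried a biotin label added by sense-strand labelling of whole transcripts. The deposited table gives 1 intensity for each probe set on each array, and its values lie on a linear scale. What the authors did to correct and normalize them is not given in the sources used here. Of the 22206 transcript probe sets, 2049 carried an identical value on at least 2 of the arrays. GEO's platform annotation named 19572 probe sets with 1 gene each and left 2634 unnamed, and all Entrez identifiers matched RefSeq on GRCm38.p6. For genes with several probe sets the brightest was taken.

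Log2 was taken with no further normalization (a floor of 1 touched 0 values), and differences were computed between pairs of arrays. Genes counted as different passed the level filter (log2 of 5.44) and reached 2-fold or 1.5-fold. That filter also let through 14.2% of the 5222 negative controls. Where 1 of 2 values was under the background level it was raised to it, giving a lower bound. All members and up to 4 genes of each further list, those past the filter with the largest difference at 0.75 µg/ml, are named. The members and lists were chosen with earlier results of these data known. Python 3.11.15, numpy 2.4.6, pandas 2.3.3 and matplotlib 3.10.9 were used, and the steps were tested on simulated data.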

Additional observations from a re-analysis of the deposited data

How the results depend on the processing

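The group medians and the counts of genes at least 2-fold different kept their direction, and moved by less than 0.1 on the log2 scale or by less than 1.5 times, under quantile normalization, median centring, a pseudocount of 16, another level filter, the mean over probe sets, dim values raised to the background level, and counting Pdk1, Pfkfb3 and Pfkfb4 among the enzymes. A level filter at the median of all probe sets was added after the data were seen. Over these settings the median of the hypoxia-inducible genes at 0.75 µg/ml ranged from -0.57 to -0.50 and that of the enzymes from -0.22 to -0.18. A bar of 1.5-fold in place of 2-fold gave 9 hypoxia-inducible genes lower against the control and 14 between the doses, which follows from the lower bar, and with dim values raised as well (added after the data were seen) 9 and 13. With dim values raised, 10 of the 96 single differences moved by 0.1 or more, those of Vegfa, Pfkfb4, P4ha2 and Car9, and Vegfa was at -0.72 at 0.75 µg/ml. A pseudocount of 16 moved 7 of the 96 by as much, toward 0. With it Ak4, at -0.96 at 0.75 µg/ml, fell short of the 2-fold bar. The count of hypoxia-inducible genes at least 2-fold lower than the control was then 3. Under quantile normalization the enzymes Hk1 and Pgam1 were below the control at 0.5 µg/ml, at -0.02 and -0.04. Counts of genes above or below the control thus depend on the processing where differences are near 0. No paired analysis was possible because each group has 1 array.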

Other observations

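Routes that branch from glycolysis or take up its product were close to the control. The 6 measured genes of the pentose phosphate pathway, which makes NADPH and ribose from glucose 6-phosphate, had a median log2 difference of 0.03 at 0.75 µg/ml, 4 above and 2 below the control. Rpia, which makes ribose 5-phosphate, was at 165 in the control, 193 at the lower dose and 234 at the higher dose, and Rpe, an epimerase of the same branch, was at 360.3, 386 and 429. H6pd was at 251, 218 and 205, and Pgls at 219, 249.5 and 189. None of them differed 1.5-fold from the control.

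The 24 measured genes of pyruvate entry and the citric acid cycle had a median of 0.01 at 0.75 µg/ml, 13 above and 10 below the control. Suclg2, a succinate-CoA ligase subunit, was at 363 in the control, 351 at the lower dose and 432 at the higher dose, and Idh3a, an isocitrate dehydrogenase subunit, at 586, 665 and 671. Pdhx was under the background level on every array, and Pdp2 at both cholesterol doses. Regulators of glycolysis in the mTORC1 and MYC pathways had a median of -0.11 over 12 measured genes. It was -0.05 over the 11 past the level filter, and -0.04 over the 12 with values under the background level raised to it. Txnip, which limits glucose uptake, was at 1871, 1697 and 1188, a log2 difference of -0.66. It was the 1 gene of the 11 past the filter at least 1.5-fold lower, where 4.53% of all genes past that filter were. Mlxip, Tsc1 and Rheb differed by -0.32, -0.31 and 0.30. Among 6 measured proliferation genes 5 were above the control at 0.75 µg/ml, against 50.8% of all measured genes, and their median was 0.11.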
